A study of Mus musculus with 2 samples.

Results

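The light chain constant genes Igkc, Iglc1, Iglc2 and Iglc3 and the joining chain gene Jchain were examined cell by cell in mediastinal lymph nodes, which drain the lung. They were taken by symbol from the gene lists of both libraries and are 5 of the 31053 genes listed. Every antibody pairs heavy chains with a kappa or a lambda light chain, and a B cell normally keeps only one of them, which is called light chain exclusion. In the mouse most B cells use kappa, the lambda loci are usually rearranged after kappa has failed or been deleted, and the constant genes Iglc1, Iglc2 and Iglc3 serve the lambda 1, lambda 2 and lambda 3 chains. Jchain encodes the small protein that links IgM and IgA into polymers, and it is made mainly by antibody-secreting plasma cells.

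Wild-type C57/B6J mice carried ovalbumin (OVA)-induced asthma, with OVA given in alum by injection on days 0 and 7 and into the nose from day 14 to day 16, and nodes were taken on day 17. One library (OVA) came from mice without butyrate and the other (C4) from mice supplemented with butyrate, a short-chain fatty acid, and each pooled the node cells of 4 mice, aged 5 to 13 weeks in the study. Each condition had 1 library, so replicates and tests were lacking, and a difference between libraries cannot be told apart from a difference between pools or cell handling. All intervals are exact 95% intervals for counting error only. The 9681 and 8932 deposited cell barcodes held a median of 5140 UMIs (unique molecular identifiers, each counting 1 captured transcript) without and 5651 with butyrate, and 25 barcode sequences occurred in both libraries. After filters, 4242 B-lineage cells without and 3980 with butyrate were kept, with 4012 and 3533 T cell-like cells as the measure of stray RNA.

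Igkc lies on chromosome 6 (GRCm38, the build also called mm10; chr6:70726435-70726966, plus strand) and the lambda genes on chromosome 16, all on the minus strand: Iglc2 at chr16:19198396-19200351, Iglc3 at chr16:19065230-19065681 and Iglc1 at chr16:19061618-19062071. The transcript used here for each constant gene is a single exon in the GENCODE annotation, while that of Jchain (chr5:88519809-88527891, minus strand) has 4 exons. How far the lambda genes can be told apart rests on their sequences, so their last 90 coding bases, stop codon included, are shown. Capitals in Iglc2 and Iglc3 mark the base at which these 2 differ, and capitals in Iglc1 mark bases that differ from both.
Iglc1: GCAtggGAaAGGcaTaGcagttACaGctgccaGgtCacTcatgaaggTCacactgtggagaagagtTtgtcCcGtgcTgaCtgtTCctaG
Iglc2: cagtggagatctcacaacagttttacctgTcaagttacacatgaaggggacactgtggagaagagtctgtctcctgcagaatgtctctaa
Iglc3: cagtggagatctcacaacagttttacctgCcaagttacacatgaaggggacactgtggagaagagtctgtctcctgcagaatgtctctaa
These stretches lie at chr16:19061752-19061841, chr16:19198536-19198625 and chr16:19065365-19065454. Iglc2 and Iglc3 differed at 1 of the 90 bases, while 26 bases of Iglc1 differed from both. Over the whole coding part, Iglc2 and Iglc3 were 96.2% identical and their longest shared run in the transcript was 79 bases, whereas Iglc1 was 73.3% identical to Iglc2 and 74.1% to Iglc3. After the stop codon, Iglc2 and Iglc3 were 89.3% identical, with 15 differences over 140 aligned positions. There Iglc1 was 51.8% identical to Iglc2 and 50% to Iglc3. The split of counts between Iglc2 and Iglc3 is therefore uncertain, and the contrast of Iglc1 with both is the firmer one.

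Igkc, Iglc2 and Iglc3 transcripts were each found in the great majority of B-lineage cells, while Iglc1 was found in fewer of them. At least 1 UMI was found for Igkc in 97.8% of B-lineage cells without butyrate and 97.6% with butyrate, for Iglc2 in 94.9% and 95.8%, for Iglc3 in 92.3% and 93.6%, and for Iglc1 in 58.3% and 59.0%. In T cell-like cells, which do not make antibody, the Iglc2 share was 4.69% without and 5.43% with butyrate, at a median of 5601.5 and 6552 UMIs per cell against 4406.5 and 4615.5 in B-lineage cells. With every cell thinned to 2000 UMIs, which left out 59 and 23 B-lineage cells and 26 and 18 T cell-like cells, Iglc2 was still found in 82.8% and 85.1% of B-lineage cells against 1.81% and 1.79% of T cell-like cells. The Iglc2 and Iglc3 transcripts of B cells were thus far above the stray RNA of the same libraries. Igkc was itself found in 53.1% and 39.0% of T cell-like cells, so 1 Igkc UMI alone does not set a cell apart from stray RNA.

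Cells with at least 10 light chain UMIs were called lambda where at least 80% came from Iglc1, Iglc2 and Iglc3, kappa where at least 80% came from Igkc, and otherwise left between the calls. A call was possible in 4210 B-lineage cells without butyrate and 3965 with butyrate. Lambda was called in 218 cells without butyrate (5.18%, 4.53 to 5.89%) and in 200 with butyrate (5.04%, 4.38 to 5.77%). Both shares lay inside each other's interval, and the log2 ratio of the share with over without butyrate was -0.04 (-0.32 to 0.25). Kappa was called in 1905 cells (45.2%) without and 1751 cells (44.2%) with butyrate, and 2087 cells (49.6%) and 2014 cells (50.8%) lay between.

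**Figure D1:**
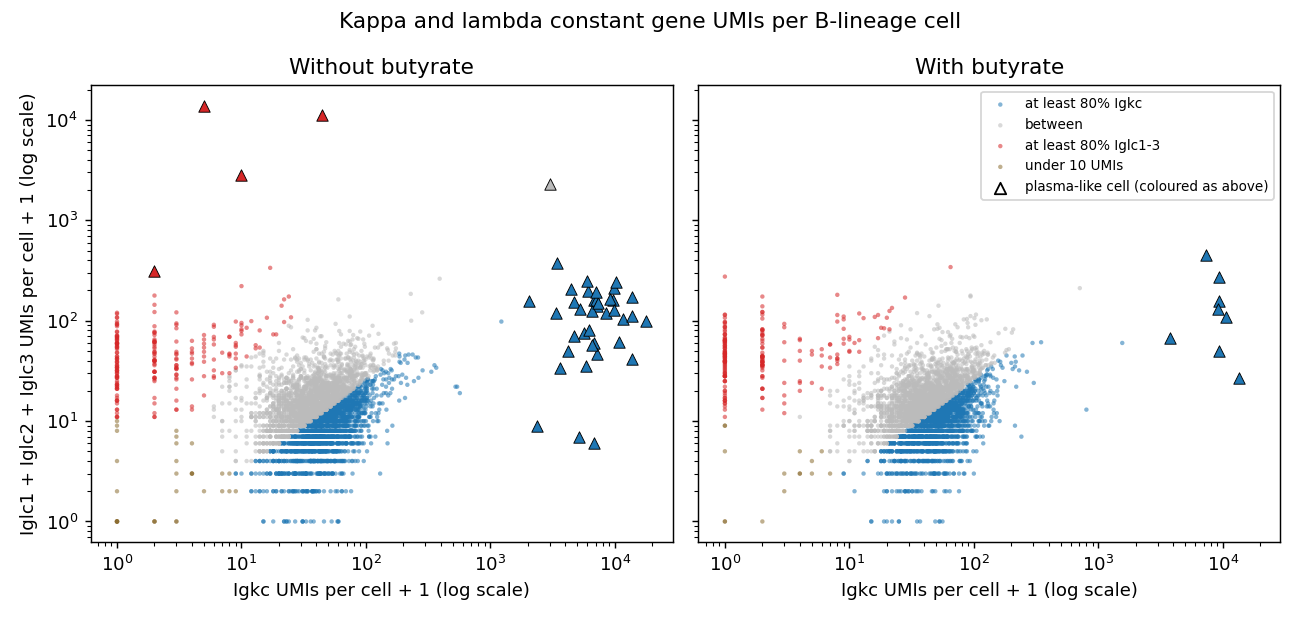
Igkc UMIs (x axis) against the sum of Iglc1, Iglc2 and Iglc3 UMIs (y axis) of each B-lineage cell, both plus 1 on log scales, one panel per library, with plasma-like cells as triangles. A separate group at low Igkc holds most of the lambda-called cells, while kappa-called cells and those between form 1 cloud that the 80% line cuts through.

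The cells between the calls were not a separate population. Outside plasma-like cells, the lambda part of the light chain UMIs was 10 to 30% in 2461 of 4167 called cells without butyrate, with 794 cells from 30 to 50%, 150 from 50 to 70% and 35 from 70 to 80%, and then a second mode of 133 cells at 95% and over. With butyrate the same bins held 2392, 775, 149, 29 and 145 of 3957 cells. The 80% line passed through the larger mode, so the share between the calls is a property of the line and not a count of cells with both chains. Setting the lambda sum to Iglc1 alone, a choice made after the data were seen, left 4.61% of cells between the calls without butyrate and 3.99% with butyrate, and put the lambda share at 3.67% and 3.76%.

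Igkc itself split the B cells into 2 groups. Without butyrate, 195 of 4199 B-lineage cells outside the plasma-like group (4.64%, 4.03 to 5.32%) had at most 4 Igkc UMIs, the 99th percentile of T cell-like cells, and with butyrate 168 of 3972 cells (4.23%, 3.63 to 4.90%) had at most 3. Of these Igkc-poor cells, 168 and 157 carried at least 10 Iglc UMIs, and 127 and 123 at least 10 of Iglc1 alone, out of 379 and 346 cells outside the plasma-like group with that much Iglc1. Only 73 cells without and 64 with butyrate had 5 to 9 Igkc UMIs, against 3931 and 3735 with at least 10. Igkc-poor cells were slightly shallower, with a median of 3888 UMIs against 4410 without butyrate and 4110 against 4629.5 with butyrate.

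The UMIs of the other chain differed between lambda-called and kappa-called cells, within a bound that the calls set. A lambda call holds Igkc to at most 20% of the light chain UMIs, and a kappa call holds the Iglc genes to the same. In lambda-called cells outside the plasma-like group, Igkc had a median of 1 UMI per cell in both libraries and a mean of 2.91 without and 2.92 with butyrate, against means of 0.881 and 0.571 in T cell-like cells. In kappa-called cells, Igkc had a median of 48 and 51 UMIs, and the 3 Iglc genes together still had a median of 7 and 8, of which Iglc2 gave 3 and 4, Iglc3 gave 3 and 3, and Iglc1 gave 0 and 0. Within this bound, lambda-called cells had little Igkc. Their mean was above that of T cell-like cells, whose median was 1 UMI without and 0 with butyrate. The 90th percentile was 8.7 and 8.1 UMIs in lambda-called cells, against 2 and 1 in T cell-like cells. Kappa-called cells kept Iglc2 and Iglc3 but little Iglc1. Whether those Iglc UMIs come from a rearranged lambda gene was not tested. Kappa and lambda cells had similar depth, with medians of 4189 and 4305 UMIs without butyrate and 4503 and 4496.5 with butyrate.

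**Figure D2:**
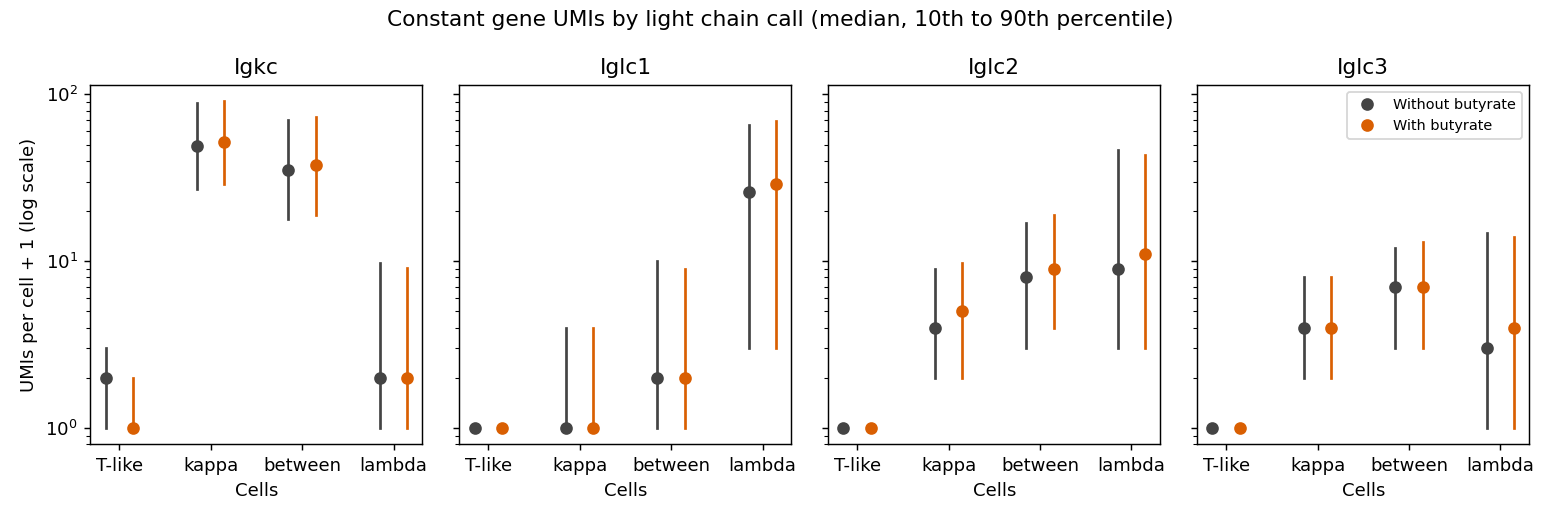
UMIs per cell plus 1 (log scale) of Igkc, Iglc1, Iglc2 and Iglc3 in T cell-like cells and in B-lineage cells outside the plasma-like group by light chain call, with points at the median and lines from the 10th to the 90th percentile over cells. Iglc1 has its highest median in lambda-called cells, whereas Iglc2 and Iglc3 are above the T cell-like level under each of the 3 calls.

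A small set of cells had high Igkc and high Iglc1 together. Among cells with at least 10 Igkc UMIs, 101 of 3931 without butyrate (2.57%, 2.10 to 3.11%) and 94 of 3735 with butyrate (2.52%, 2.04 to 3.07%) held at least 20 Iglc1 UMIs, a limit set after the values were seen. Their median Igkc was 39 and 50.5 UMIs, close to the 41 and 44 of the other cells. Their depth was higher, with a median of 6142 against 4397.5 UMIs without butyrate and 8386 against 4620 with butyrate, as were their median Scrublet doublet scores, 0.0648 against 0.051 and 0.0617 against 0.0526. The part that 2 cells in 1 droplet play in this set was not tested.

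Iglc1 was the leading lambda gene in most lambda-called cells of either library. Outside plasma-like cells, Iglc1 was highest in 153 of 214 cells without butyrate (71.5%, 64.9 to 77.4%) and 140 of 200 with butyrate (70.0%, 63.1 to 76.3%). Iglc2 was highest in 49 cells of each library (22.9% and 24.5%) and Iglc3 in 12 and 11 cells (5.61% and 5.50%). Cells led by Iglc1 had a median of 31 and 35 Iglc1 UMIs beside 5 and 7 of Iglc2 and 1 and 2 of Iglc3. Cells led by Iglc2 had a median of 37 and 35 Iglc2 UMIs and still 4 and 8 of Iglc1, while cells led by Iglc3 had 42 and 21 Iglc3 UMIs and 2.5 and 0 of Iglc1. Where the leading gene had to hold at least 80% of the Iglc UMIs, 79 and 57 Iglc1-led, 23 and 17 Iglc2-led and 5 and 4 Iglc3-led cells remained.

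Variable segments, which lie at the other end of the transcript from the 3′ tag, were sparsely counted. Outside plasma-like cells, the lambda segment gene Iglv1 was found in 23.4% and 22.0% of lambda-called cells against 2.62% and 2.29% of kappa-called cells, without and with butyrate. The summed Igkv segments were found in 30.8% and 30.98% of kappa-called cells against 4.67% and 5% of lambda-called cells. These genes, which the calls did not use, were found more often in the cells of their own chain in both libraries. Plasma-like cells differed, since 45 of 46 kappa plasma-like cells held Iglv1, with a median of 46 UMIs without and 22 with butyrate.

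The lambda share varied among the B cell clusters. Follicular B-like cells were lambda in 142 of 2826 called cells without butyrate (5.02%, 4.25 to 5.90%) and 134 of 2885 with butyrate (4.64%, 3.91 to 5.48%). B-lineage cluster 6, led by S100a6, S100a4, Ahnak, Zbtb32 and Fcrl5 and left unnamed, held 12 lambda cells of 124 without butyrate (9.68%, 5.10 to 16.3%) and 21 of 124 with butyrate (16.9%, 10.8 to 24.7%). Its Iglc1 level was 1244 CPM (UMIs of the gene scaled to a total of 1e+06 UMIs) without and 1511 CPM with butyrate, against 723 and 661 CPM in follicular B-like cells. The lambda share of cluster 6 was above the follicular interval in both libraries. The intervals of the 2 groups overlapped without butyrate and were apart only with butyrate. Cluster 6 had the highest share of the clusters compared, the cells of each library share 4 mice, and the difference was not tested.

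B-lineage cluster 7 stood at the other end. It was led by the proliferation genes Pclaf, Mki67 and Birc5, and it kept its number because cycling genes outnumbered germinal centre markers among its top genes. None of its 79 called cells without butyrate was lambda, a count of 0 that leaves room for shares up to 4.56% by the exact interval, and none of 45 with butyrate, where the same limit is 7.87%. Both limits lie above the lower end of the follicular interval. Its Iglc2 level was 453 and 523 CPM and its Iglc3 level 466 and 485 CPM, against 1388 and 1453 CPM and 1026 and 1025 CPM in follicular B-like cells. Igkc was 6850 and 8860 CPM, against 9025 and 9090 CPM. Iglc1 was nearer the follicular level, at 505 and 624 CPM against 723 and 661 CPM. With butyrate 1 cell held 29.9% of the Iglc1 UMIs of cluster 7, and 1 cell held 21.5% of its Igkc UMIs. The highest cells without butyrate held 8.61% and 10.9%. The lower Iglc2 and Iglc3 CPM of cluster 7 were alike in the 2 libraries, and cells of 1 clone cannot be told apart here. Its cells were deeper, with a median of 15803 and 13356 UMIs against 4124 and 4336.5 in follicular B-like cells. By mean UMIs per cell the order was reversed, with 9.25 and 9.28 Iglc2 UMIs against 6.21 and 6.85. The Iglc2 medians were not reversed, at 4 and 5 UMIs against 5 and 5. Iglc2 was found in 80% and 76.1% of cluster 7 cells against 95.6% and 96.2% of follicular B-like cells. In cluster 7, 1 cell held 20.1% of the Iglc2 UMIs without butyrate, and 1 cell held 14.8% with butyrate. For Iglc3 the means were 9.525 and 8.61 against 4.59 and 4.83, and for Iglc1 10.3 and 11.1 against 3.24 and 3.12.

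Apart from cluster 10, the remaining B-lineage groups had lambda shares near that of follicular B-like cells, but their levels varied. Clusters 3 and 4, whose leading genes included Srm and Mettl1, had Igkc between 6668 and 7659 CPM and lambda shares between 4.49 and 6.42% in the 2 libraries. In cluster 4 Iglc3 was 759 and 680 CPM, below the follicular level. Interferon-response B-like cells had 9747 and 10506 CPM of Igkc and lambda shares of 4.88% and 5.04%. Activated B-like cells had 3 lambda cells of 74 without and 1 of 51 with butyrate, with an Iglc1 level of 464 and 343 CPM and an Iglc3 level of 637 and 842 CPM, both below the follicular levels. Cluster 10, 17 and 5 shallow cells, had 3050 and 2488 CPM of Igkc, and only 3 and 1 of its cells could be called, none as lambda. It stayed unnamed with a best marker score of -0.33, and its leading genes included Fyb and Il7r. Whether its cells are B cells was not tested.

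Plasma-like cells held light chain UMIs at far higher levels, and nearly all were called kappa or lambda. Their class held 43 cells without butyrate and 8 with butyrate. Without butyrate, 38 were kappa, 4 lambda (9.30%, 2.59 to 22.1%) and 1 between. With butyrate all 8 were kappa, which leaves a lambda share of up to 36.9% by the exact interval. Barcodes rich in antibody RNA but removed for their doublet scores are not in these counts. Among them were barcodes of 12407 Iglc1 and 61 Igkc and of 7525 Iglc1 and 9 Igkc UMIs without butyrate. With butyrate they held 1662 Iglc3 and 250 Igkc, and 10553 Igkc and 62 Iglc1 UMIs. In the 38 kappa cells Igkc ran from 2056 to 17821 UMIs with a median of 6765.5, and the 3 Iglc genes together ran from 5 to 377 with a median of 122. In the 8 kappa cells with butyrate Igkc was 13558, 10669, 9350, 9298, 9270, 9074, 7328 and 3777 UMIs, and the summed Iglc genes gave 26, 107, 49, 273, 157, 129, 446 and 67. Lambda transcripts made up a median of 1.42% and 1.53% of the light chain UMIs of these kappa cells, and no kappa plasma-like cell was without Iglc2 and Iglc3 together.

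The 4 lambda plasma-like cells differed in their lambda gene. The first held 11284 Iglc1 UMIs beside 43 of Igkc and had Ighg1 as its highest heavy chain gene. The second held 13830 Iglc3 UMIs beside 10 of Iglc2 and 4 of Igkc, with Igha highest. The third held 1661 Iglc3 and 1111 Iglc2 UMIs beside 9 of Igkc, with Ighm highest. The fourth was a shallow barcode of 940 UMIs with 312 of Iglc3 and 1 of Igkc, and with Ighg3 highest. In each of them the lambda genes gave over 99.6% of the light chain UMIs, while the lambda part in the kappa plasma-like cells ran from 0.0735 to 9.96% without butyrate. The cell between the calls held 3033 Igkc and 2310 Iglc1 UMIs among 26391 in all, with Ighg1 highest at 1141 UMIs.

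**Figure D3:**
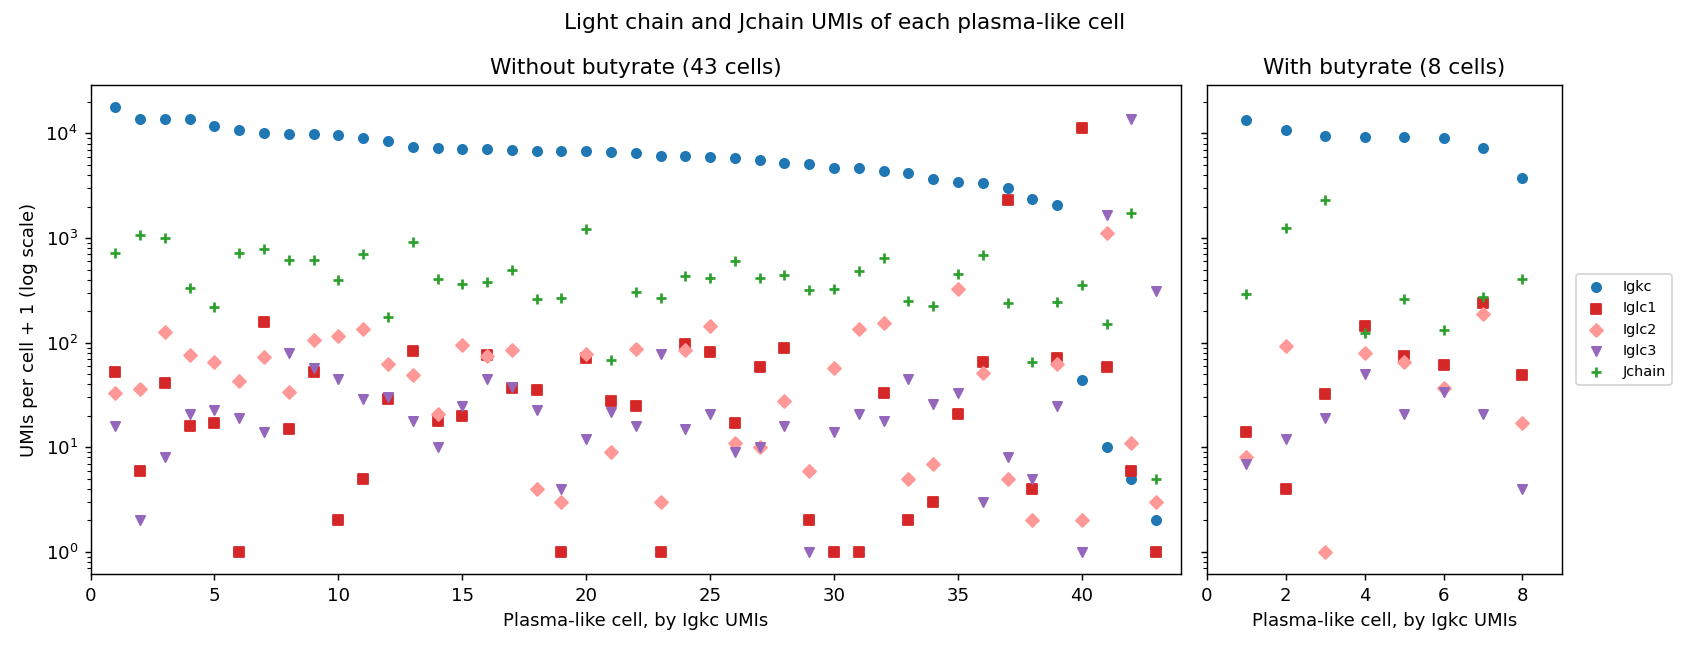
UMIs plus 1 (log scale) of each constant gene and Jchain in every plasma-like cell, ordered by Igkc, without (43 cells) and with butyrate (8 cells). Igkc is the highest light chain gene in 39 cells without butyrate and in all 8 with butyrate, and the last 4 cells without butyrate have at most 43 Igkc UMIs and a lambda gene on top.

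A few cells carried much of the lambda total. The cell with 13830 UMIs held 37.0% of all Iglc3 UMIs of the B-lineage cells without butyrate, and the cell with 11284 UMIs held 35.9% of Iglc1. Without butyrate 41.4% of all deposited Iglc1 UMIs lay in barcodes removed by the filters, 22.8% in a single barcode of 12407 Iglc1 UMIs. For Iglc2 the highest cell held 3.42% of its B-lineage UMIs without butyrate.

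Levels of the light chain genes in B cells were close between the libraries once plasma-like cells were set aside. A 3′ UMI counts 1 transcript whatever its length, so CPM were not divided by length. Over all B-lineage cells, Igkc was 20203 CPM without and 11782 CPM with butyrate, a log2 ratio on the CPM plus 10 scale of -0.78, and plasma-like cells held 56.2% and 24.2% of all deposited Igkc UMIs. Iglc1 and Iglc3 gave log2 ratios of -0.82 and -0.76, Iglc2 gave 0.02, and Jchain gave -1.88, from 930 to 245 CPM. Jchain was the 1 of 5 genes past 2-fold, beside 0.105% of the 10441 genes with at least 50 UMIs. Without plasma-like cells, Igkc was 8497 and 8614 CPM (0.02), Iglc1 742 and 737 CPM (-0.01), Iglc2 1300 and 1398 CPM (0.10), Iglc3 934 and 945 CPM (0.02) and Jchain 42.0 and 18.9 CPM (-0.85). On the CPM plus 10 scale none of the 5 was then past 2-fold, beside 0.0193% of 10355 genes, but Jchain passed it with a pseudocount of 1 (-1.11). With the barcodes scored as doublets kept, Iglc1 over all B-lineage cells gave -1.40 and passed 2-fold, and Jchain without plasma-like cells turned to 0.0645. With classes set from marker UMIs alone, Jchain outside the plasma-like class gave -2.15.

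Jchain was found in every plasma-like cell and in most cells of cluster 7. In plasma-like cells Jchain ran from 4 to 1750 UMIs with a median of 404 without butyrate, the lowest being the shallow barcode, and from 123 to 2287 with a median of 283.5 with butyrate. The level was 17991 CPM without and 20857 CPM with butyrate, but the cell of 2287 UMIs held 45.6% of the Jchain UMIs of the class with butyrate. Without butyrate the highest cell held 8.41%. In cluster 7 at least 1 Jchain UMI was found in 46 of 80 cells (57.5%, 45.9 to 68.5%) and 32 of 46 cells (69.6%, 54.2 to 82.3%), at 467 and 456 CPM (log2 ratio -0.03, -0.21 to 0.14). At least 10 UMIs were held by 24 cells (30%) and 14 cells (30.4%), with maxima of 65 and 52. These cells were deeper, with medians of 26124.5 against 12599.5 UMIs without butyrate and 19746.5 against 12363.5 with butyrate, and held more Igkc, 184.5 against 88.5 and 139.5 against 64.5 UMIs.

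Elsewhere Jchain was sparse. Follicular B-like cells had a Jchain UMI in 2.22% of cells without and 0.829% with butyrate, and T cell-like cells in 2.67% and 0.679%. The follicular level was 7.24 CPM (5.83 to 8.88) without and 1.98 CPM with butyrate, against 4.36 and 0.954 CPM in T cell-like cells, of which none held more than 2 UMIs. Cluster 6 had 39.9 CPM (29.6 to 52.8) and a cell of 26 UMIs without butyrate, and 2.17 CPM with butyrate. The only other cells with at least 10 UMIs were 2 follicular B-like and 2 cluster 6 cells, all without butyrate. They held 10 and 21 of the 92 follicular UMIs and 13 and 26 of the 49 UMIs of cluster 6. The CPM intervals treat UMIs of 1 cell as independent, so they do not cover the weight of such cells. In all, 70 of 4242 B-lineage cells without (1.65%, 1.29 to 2.08%) and 22 of 3980 with butyrate (0.553%, 0.347 to 0.836%) held at least 10 Jchain UMIs, a log2 ratio of -1.58 (-2.34 to -0.87). Of these, 42 and 8 were plasma-like and 24 and 14 lay in cluster 7, and plasma-like cells held 95.1% and 91.9% of the Jchain UMIs of all kept cells.

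**Figure D4:**
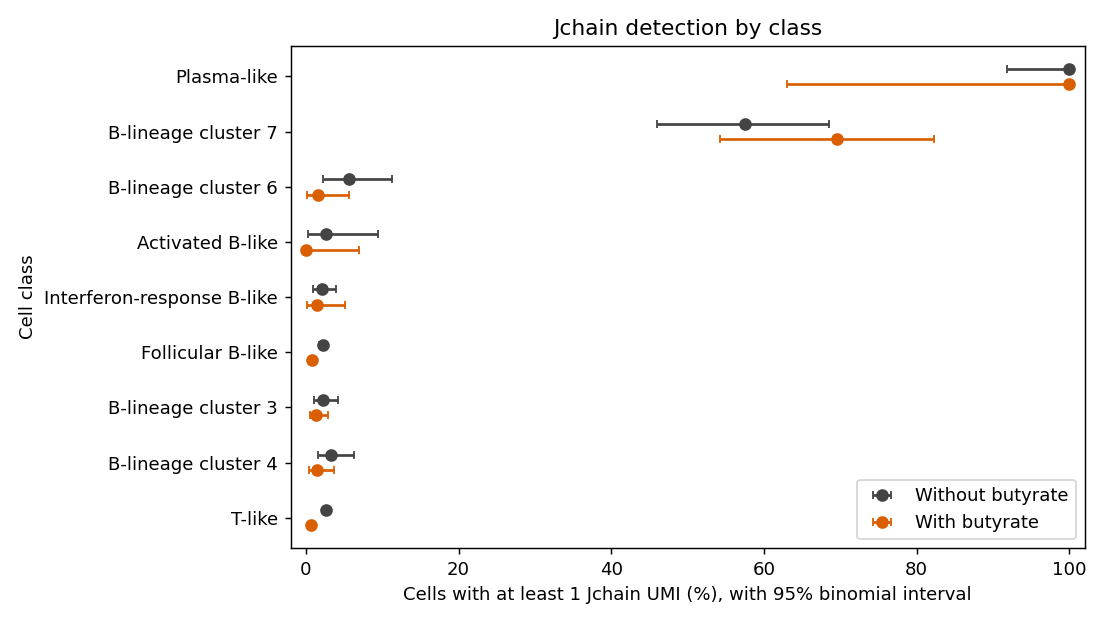
Share of cells with at least 1 Jchain UMI (x axis, percent) in each B-lineage class of over 22 cells, in plasma-like cells and in T cell-like cells, with exact 95% binomial intervals. Plasma-like cells are at 100% and cluster 7 at 57.5 and 69.6%, while the other classes lie at 5.65% or lower.

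Among plasma-like cells the highest Jchain counts belonged to those with Igha as the top heavy chain gene. The 3 such cells had 1750, 1240 and 2287 UMIs, and no other plasma-like cell passed 1224. As a share of the cell's UMIs they held 5.77, 4.88 and 8.37%, ranks 3, 4 and 1 of 51, with an Ighm cell of 6.39% between. A barcode with butyrate that was also led by Igha, removed for its doublet score, held 261 Jchain UMIs among 66243. Cells led by Ighm without butyrate ran from 68 to 1224 Jchain UMIs (12 cells), and cells led by Ighg2c, the most common heavy chain gene there, from 64 to 794 (15 cells). IgG is secreted without the joining chain, yet every cell led by an IgG gene held Jchain UMIs.

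T cell-like cells carried stray UMIs of all 5 genes, and those of Igkc, Iglc1 and Jchain were found in more cells without butyrate. Igkc was found in 53.1% of T cell-like cells without butyrate (51.5 to 54.6%) and 39.0% with butyrate (37.4 to 40.6%), at 143 and 80.1 CPM, and in 23.9% and 14.4% after thinning to 2000 UMIs. Iglc1 was found in 9.05% and 2.63% and Jchain in 2.67% and 0.679%, whereas Iglc2 gave 4.69% and 5.43% and Iglc3 4.01% and 3.91%. Plasma-like cells held more UMIs of all 5 genes without butyrate, Iglc2 (3595 against 482) and Iglc3 (16669 against 160) included. The part of plasma cell RNA in the stray UMIs was not tested.

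The proportions of the stray UMIs were set beside those of the whole library and came close to them for some genes only. Per 100 Igkc UMIs, T cell-like cells without butyrate held 11.0 of Iglc1 (9.86 to 12.2), and all deposited cells held 10.8, whereas the kept B-lineage cells held 6.65. With butyrate the Iglc1 values were 5.61 (4.60 to 6.78), 6.47 and 6.42. Iglc2 stood at 6.14 (5.33 to 7.04) in T cell-like cells, 7.31 in all cells and 6.88 in B-lineage cells without butyrate, and at 11.4 (9.91 to 13.1), 11.8 and 11.9 with butyrate. Iglc3 stood at 5.83 (5.04 to 6.71), 8.04 and 7.92 without butyrate and at 8.09 (6.85 to 9.49), 8.52 and 7.99 with butyrate. Jchain was lower in T cell-like cells than in all cells in both libraries, at 3.06 (2.50 to 3.70) against 4.46 and 1.19 (0.761 to 1.78) against 2.04. Without butyrate the T cell-like interval held the whole-library value for Iglc1 and lay below it for Iglc2, Iglc3 and Jchain, and with butyrate it lay below it for Jchain alone of these 4 genes.

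**Figure D5:**
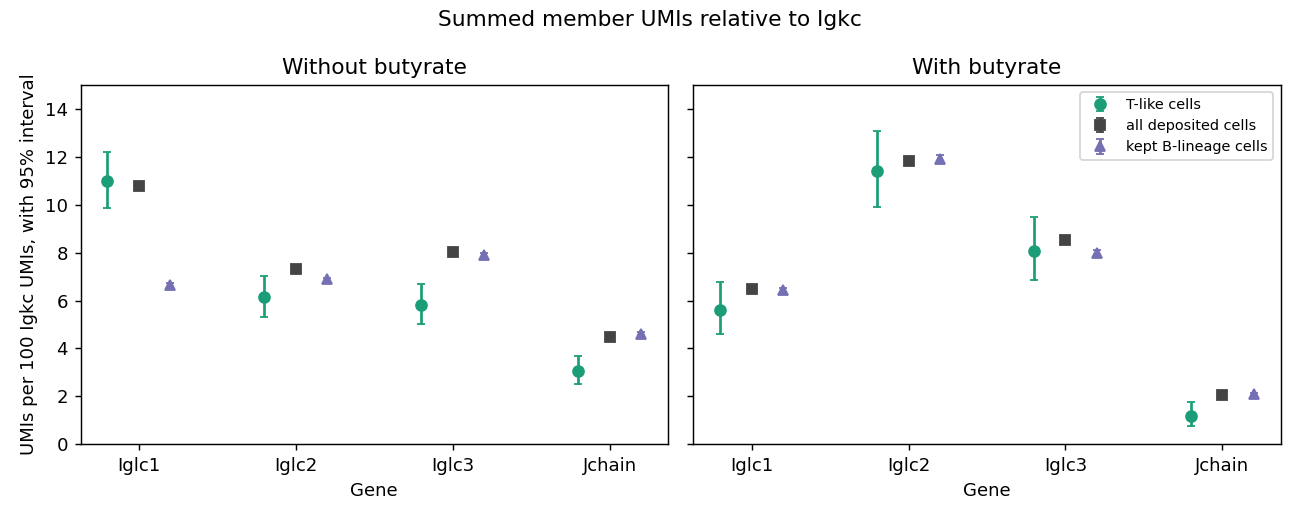
UMIs of Iglc1, Iglc2, Iglc3 and Jchain per 100 Igkc UMIs in T cell-like cells, all deposited cells and kept B-lineage cells, one panel per library, with exact 95% counting intervals. Without butyrate the T cell-like value of Iglc1, 11.0, lies beside the 10.8 of all deposited cells and above the 6.65 of the kept B-lineage cells.

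Other genes of antibody assembly and secretion were read as a list. Of 36 listed genes, 29 had at least 50 UMIs in B-lineage cells, and on the CPM plus 10 scale none was past 2-fold in either direction, beside 0.105% of all genes. Their median log2 ratio was -0.03, against 0.03 over all 10441 genes. At low levels the pseudocount narrows a ratio, and 4 listed genes, picked out after their values were seen, were more than 2-fold apart in plain CPM. These were Derl3 at 18.9 CPM without and 5.05 with butyrate, Fkbp11 at 37.6 and 16.2, Sdc1 at 7.22 and 2.57 and Prdm1 at 4.27 and 1.94. Once plasma-like cells were left out, Derl3 was at 4.23 and 2.69 CPM and Fkbp11 at 10.03 and 8.66. Sdc1 was then at 1.66 and 1.003 CPM and Prdm1 at 1.80 and 1.23, so all 4 were under 2-fold. Listed genes that hardly differed over all B-lineage cells included Txndc5 at 104 and 101 CPM and Tnfrsf17 at 2.39 and 2.30. The largest differences at 100 CPM or more were in Mzb1, a chaperone-linked protein of antibody folding, at 631 CPM without and 383 CPM with butyrate (-0.71), and Hsp90b1, an endoplasmic reticulum chaperone, at 617 and 384 CPM (-0.67). Without plasma-like cells Mzb1 and Hsp90b1 were at 373 and 335 CPM (-0.15) and 314 and 334 CPM (0.09). Rag1 and Rag2, the recombinase that assembles light chain genes, and Igll1, the surrogate light chain of B cell precursors, had no UMI in B-lineage cells of either library.

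Across 27 sums over a class and library of at least 20 cells, the genes outside the immunoglobulin loci most like each member in log2(CPM + 10) were mostly genes of B cells and secretion. Igkc ran closest to Mzb1 (Pearson r = 0.97) and Syvn1 (0.96), an enzyme of endoplasmic reticulum protein quality control. Iglc1 ran closest to Mzb1 (0.91), and Iglc3 also to Mzb1 (0.97), while Iglc2 ran closest to the predicted gene Gm30211 (0.97) and to the B cell signalling adaptor Blnk (0.96). Jchain ran closest to Endou (0.96) and Eaf2 (0.95). Mzb1 and Eaf2 were also among the markers that named the plasma-like class. That class entered only with its sum without butyrate, since with butyrate it held 8 cells. The sums share libraries and cell types, so the values are descriptions only.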

How the data were processed

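Single-cell 3′ libraries (10x Genomics, version 3 chemistry) of mediastinal lymph node cells were processed by the authors with Cell Ranger 6.0.1 on mm10, and the deposited matrices hold UMI counts per gene and cell. Barcodes were kept with at most 10% mitochondrial UMIs and at least 200 genes, and the highest Scrublet scores (scanpy 1.11.5; 0.8% per 1000 cells) were removed as doublets, 721 without and 592 with butyrate; Scrublet's own limit marked 377 and 233. Cells were clustered with Seurat 5.3.0 (2000 variable genes without immunoglobulin genes or Jchain, 30 components, 20 neighbours, resolution 0.8), and B-lineage cells again. Clusters were named from marker lists (mean score of at least 0.5, at least 3 markers), and otherwise kept a number. Members, lists and rules were chosen with earlier results of these data known. Light chain calls, CPM (pseudocount 10), exact Poisson and Clopper-Pearson intervals and thinning to 2000 UMIs used Python 3.11.15 with scipy 1.17.1. Ratios were tested on simulated data. The named genes were the members, Iglv1 to Iglv3, summed Igkv, the listed antibody genes of largest ratio at 100 CPM or more, and the top likeness genes. The limits of 20 Iglc1 UMIs, the removed barcodes and the Igha cells were chosen after values were seen. Transcript sequences and coordinates came from GENCODE on GRCm38, the build of mm10. How butyrate was given to these mice is not given in the sources used here for these libraries. Alternatives were other filters, classes, call limits, thinning, totals and pseudocounts.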

Additional observations from a re-analysis of the deposited data

Results flagged for a closer look

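Without butyrate, 41.4% of the deposited Iglc1 UMIs lay in barcodes that were removed before the comparisons, well above the 12.1% with butyrate. Most sat in 2 barcodes removed for their doublet scores, one with 12407 Iglc1, 61 Igkc, 348 Jchain and 3877 Ighg1 UMIs among 27084, and one with 7525 Iglc1, 9 Igkc, 168 Jchain and 1953 Ighg1 UMIs among 13613. With butyrate, 2 barcodes of this kind were removed. One held 1662 Iglc3, 250 Igkc, 261 Jchain and 899 Igha UMIs among 66243. The other held 10553 Igkc, 350 Jchain and 2060 Ighm UMIs among 24674. Their score was 0.179 for both without butyrate and 0.130 and 0.144 with butyrate, and whether they are 1 cell or 2 was not tested.

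Kappa plasma-like cells held transcripts counted to the lambda segment gene Iglv1, a gene the light chain calls do not use, at a median of 46 UMIs per cell without butyrate and 22 with butyrate. At least 1 Iglv1 UMI was found in 45 of 46 such cells, against 0.299% and 0.0283% of T cell-like cells. In 29 of the 46 cells Iglv1 passed Iglc1, and in 24 it passed the summed Igkv segments, with a maximum of 659 UMIs in a cell of 10873 Igkc and 0 Iglc1 UMIs. The lambda plasma-like cell with 11284 Iglc1 UMIs held 186 of Iglv1. The source of these reads was not tested.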

How the results depend on the processing

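No paired analysis was possible because each condition has 1 library. For the same reason no library could be left out. Of 225 values over 30 results, 152 lay within the exact 95% interval of the main result and 73 lay outside. Among the main results given as a log2 ratio, only Jchain over all B-lineage cells (-1.88) and the share with at least 10 Jchain UMIs (-1.58) passed 2-fold. These ratios kept their sign under each alternative tried. The shares of T cell-like cells with a UMI were not given as ratios. Among them Iglc1 (9.05% and 2.63%) and Jchain (2.67% and 0.679%) were also more than 2-fold apart. Some smaller ratios changed sign. Outside plasma-like cells, Jchain went from -0.85 to 0.0645 without doublet removal, and Igkc from 0.02 to -0.13 with classes from marker UMIs. The lambda share, without and with butyrate, was 4.20% and 4.09% at a call limit of 90%, 6.01% and 5.78% at 70%, 4.24% and 4.05% with chains called above the 99th percentile of T cell-like cells, and 3.67% and 3.76% from Iglc1 alone. The share between the calls was 82.1% and 84.9% at 90%, 22.2% and 22.8% at 70%, 91.5% and 93.3% by the T cell-like percentile, 46.2% and 48.0% after thinning, and 4.61% and 3.99% from Iglc1 alone. Called from variable segments in 52 and 13 cells, lambda was 25% and 0%, the share between 51.9% and 38.5%, and Iglc1 led in 38.5% of lambda cells without butyrate. Where Iglc1 had to hold 80% of the Iglc UMIs, it led in 36.7% and 28.5% of lambda cells. The share of B-lineage cells with at least 10 Jchain UMIs was 0.980% and 0.177% after thinning (log2 ratio -2.47) and 1.11% and 0.203% without cluster 7 (-2.44). After thinning, T cell-like cells held Igkc in 23.9% and 14.4% and Jchain in 0.928% and 0.199%.

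Outside plasma-like cells, the Igkc log2 ratio was 0.0955 without doublet removal, 0.0403 at most 5% mitochondrial UMIs, -0.13 with classes from marker UMIs and -0.0063 with ribosomal, mitochondrial and immunoglobulin genes left out of the total. The Jchain ratio was 0.0645 without doublet removal, -2.15 with classes from marker UMIs, -0.97 with those genes left out of the total and -1.11 with a pseudocount of 1. At 200 UMIs or more per gene, 0.128% of genes over all B-lineage cells and 0.0235% without plasma-like cells were past 2-fold. The cause of these moves was not tested. The alternatives with Iglc1 alone, without plasma-like cells, without cluster 7 and without interferon-response T clusters were chosen after seeing the data. Counting intervals do not cover differences between mice, and 8 plasma-like cells with butyrate leave a lambda share there poorly bounded.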

Other observations

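Other cells than lymphocytes also held light chain UMIs. In myeloid-like cells Igkc was 541 CPM without and 487 CPM with butyrate and Iglc3 was 207 and 177 CPM, against 143 and 80.1 CPM of Igkc and 8.32 and 6.48 CPM of Iglc3 in T cell-like cells. The median myeloid-like cell held 1 Igkc UMI in both libraries, and 6 of 70 and 10 of 78 held at least 10. The highest cell held 32.5% and 13.5% of the myeloid-like Igkc UMIs. Iglc3 was found in 19 of 70 and 18 of 78 myeloid-like cells, and 1 cell held 27.8% and 11.9% of these Iglc3 UMIs. In dendritic-like cells 1 cell with butyrate held 92 of the 94 Iglc1 UMIs.

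The neighbouring constant gene Iglc4 of the lambda locus had 85 UMIs over all deposited cells without and 73 with butyrate, in 81 and 69 cells. Among variable segments Iglv2 had 16 and 13 UMIs and Iglv3 had 326 and 228.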
